A study of Mus musculus with 12 samples.

Results

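Hematopoietic stem cells (HSCs) of mice with 1 intact allele of Erg were compared with wild-type HSCs across all measured genes. The comparison holds 6 of the 12 arrays of the series: 3 of Erg +/- HSCs and 3 of Erg +/+ HSCs, each a sorted sample of male C57Bl/6 mice (at least 6 generations). Both groups were sorted from c-Kit-enriched bone marrow as Lineage-, Sca-1+, c-kit+, CD150+ and CD48- cells, and the labels give them no drug or other treatment. The Erg +/- mice came from E14.1 embryonic stem cells in which loxP sites flank exon 11, which encodes the DNA-binding domain. The Neo cassette was removed with Flp, and a general Cre deleter cross deleted the exon in the germ line, so that every cell of the animal carried 1 allele. The titles of these samples call them knock-outs, whereas the genotype field gives Erg +/-, which is used here. The other 6 arrays measured multipotent progenitors (MPPs) of Erg fl/fl mice and of Mx1-Cre mice labelled Erg -/-. Both MPP groups had 5 injections of pIpC and were sorted 2 weeks after the first.

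Erg is a transcription factor of the ETS family, whose members bind DNA at sites built around the letters GGAA. HSCs are the rare, mostly quiescent marrow cells that renew themselves and supply all blood lineages, and Erg is known to be needed to keep them. It is also active in endothelium and in megakaryocytes. The genotype and the sort could not be checked on their own genes, since Erg, Kit, Ly6a, Slamf1, Cd48 and Cd34 are not analysed here. Myc is likewise not analysed here.

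Values are log2 RMA values, in which arrays have been given a common distribution, so a difference is relative to the bulk of probe sets. Each of 9984 genes is represented by 1 probe set. Array medians of the HSC samples lay between 5.41 and 5.50, and arrays correlated at r = 0.9528 to 0.9572 within Erg +/+, 0.9587 to 0.9602 within Erg +/- and 0.9504 to 0.9617 between the genotypes. Replicates of a genotype were thus no closer to each other than to the other genotype over the whole transcriptome. Xist lay between 3.74 and 4.38 and the Y-linked gene Eif2s3y between 7.62 and 8.81 on the 6 arrays, as in male cells. Separate animals are not stated in the labels: the p-values then measure only how far these particular samples scatter, which may be a technical spread. Unless stated otherwise, that scatter was estimated jointly over all 12 arrays of the series, the MPP arrays included. In sorted cell samples, fewer cells of a type and less RNA per cell cannot be told apart.

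Cracd rose and Sparc fell in HSCs with 1 Erg allele, and these were the 2 of 9984 genes (0.02%) that passed an adjusted p under 0.05 in limma with Benjamini-Hochberg adjustment. No other gene passed that threshold. At an unadjusted p under 0.05, called nominal from here on, 273 genes (2.73%) stood higher and 358 (3.59%) stood lower in Erg +/- HSCs. Together these were 631 genes (6.32%), where a share near 0.05 would be nominal if no gene differed. The 3 arrays of each genotype did not overlap for 1042 genes (10.4%), of which 605 (6.06%) were higher and 437 (4.38%) lower. With 3 arrays a group, about as large a share would separate if no gene differed. A lack of overlap, here and further on, therefore does not by itself mark a changed gene. A difference of at least 1 log2 unit, in either direction, was found for 121 genes, and 35 of these were nominally higher and 55 nominally lower. With genes split by mean level into 4 bins of 2496, the third bin (5.81 to 7.07) held 154 nominally lower and 78 nominally higher genes, against 22 and 32 in the lowest bin. Every list described further on is to be read against these shares, and against a median of 0.0241 log2 units and 53.8% positive differences over all genes. This background varied with level: from the lowest to the highest bin the median was 0.049, 0.069, -0.024 and -0.03. Of the lists, only the Zfp genes were split by level.

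**Figure D1:**
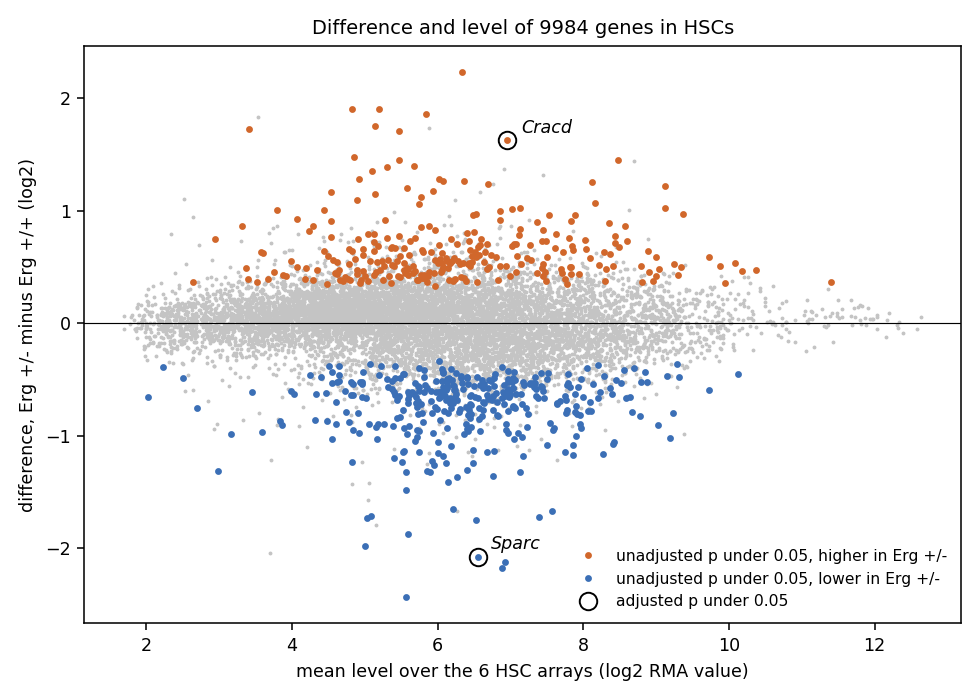
Each point is 1 of 9984 genes, with its mean over the 6 HSC arrays (log2 RMA value) on the horizontal axis and the difference Erg +/- minus Erg +/+ (log2) on the vertical axis. Coloured points are the 273 genes nominally higher and the 358 nominally lower, and circles mark Cracd at 1.62 and Sparc at -2.08, the 2 genes that passed over all genes.

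Cracd encodes an inhibitor of the capping proteins that cover the growing ends of actin filaments. It measured 6.11, 6.19 and 6.13 on the Erg +/+ arrays and 7.62, 7.85 and 7.83 on the Erg +/- arrays. The 2 groups were narrow and lay more than 1 log2 unit apart, and the difference was 1.62 log2 units (SE 0.164, limma adjusted p = 0.00303). A second, dimmer probe set of Cracd overlapped between the genotypes (difference 0.34, unadjusted p = 0.18). With the mean of both probe sets the difference was 0.98 and Cracd missed the threshold (adjusted p = 0.089).

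Sparc encodes a secreted, collagen-binding matrix glycoprotein made by bone-forming and stromal cells, endothelium and megakaryocytes. It measured 7.97, 7.40 and 7.40 on the Erg +/+ arrays and 5.16, 5.95 and 5.42 on the Erg +/- arrays. All Erg +/- arrays lay below all Erg +/+ arrays, with a fall of 2.08 log2 units (SE 0.285, limma adjusted p = 0.0401). Sparc missed the threshold without Erg +/+ replicate 1 (adjusted p = 0.112), Erg +/+ replicate 3 (0.102), Erg +/- replicate 1 (0.0776) or Erg +/- replicate 3 (0.202), whereas Cracd passed with each of the 6 arrays left out. When limma was given only the 6 HSC arrays, neither passed (0.0975 for Cracd and 0.206 for Sparc).

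The promoters of the 2 genes are shown because the altered factor binds DNA around GGAA. They are the 250 bases before the RefSeq transcription start (build GRCm38.p6), read 5′ to 3′ along the gene, with GGAA and its reverse complement TTCC in capitals. The first is chr5:76840349-76840598 on the plus strand and the second chr11:55420081-55420330 on the minus strand.
Cracd: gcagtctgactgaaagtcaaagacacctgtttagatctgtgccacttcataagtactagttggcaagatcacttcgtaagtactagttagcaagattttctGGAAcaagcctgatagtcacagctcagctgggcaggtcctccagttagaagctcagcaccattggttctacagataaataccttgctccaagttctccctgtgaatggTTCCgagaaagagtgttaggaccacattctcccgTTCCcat
Sparc: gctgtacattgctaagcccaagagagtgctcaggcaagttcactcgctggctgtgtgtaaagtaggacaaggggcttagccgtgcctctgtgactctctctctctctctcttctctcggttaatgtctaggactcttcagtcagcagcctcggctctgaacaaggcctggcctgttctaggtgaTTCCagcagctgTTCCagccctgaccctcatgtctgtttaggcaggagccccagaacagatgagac
The Cracd window held 3 such matches and the Sparc window 2. GGAA on either strand was found in 93.0% of the 6423 measured genes with 1 promoter in the table, in 94.8% of the 193 nominally higher and in 93.8% of the 210 nominally lower genes. The longer ETS letters CCGGAAGT, which contain GGAA, occurred on either strand in 4.7% of all these promoters, 6.2% of the higher and 5.7% of the lower set. In the 100 bases before the start, GGAA was found in 65.8% of all, 71.0% of the higher and 64.8% of the lower set, and CCGGAAGT in 3.5%, 4.1% and 4.3%. A match describes letters only and is no evidence of binding.

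Among genes higher in Erg +/- HSCs, the smallest p after Cracd belonged to Nupr1, a stress-responsive chromatin protein that is abundant in HSCs. Its values were 8.25, 8.69 and 8.58 in Erg +/+ and 9.55, 9.89 and 9.74 in Erg +/- HSCs (difference 1.22, SE 0.177, adjusted p = 0.0507, and 0.0495 without Erg +/+ replicate 2). P2ry10, a G protein-coupled receptor for lysophospholipids found on lymphocytes, measured 4.08, 4.04 and 4.67 against 5.90, 6.56 and 5.56. It thus went from a low to a middle level on its own scale (difference 1.75, SE 0.281, adjusted p = 0.0638). Ces2g, a carboxylesterase, measured 7.85, 7.69 and 7.35 against 8.68, 8.64 and 8.79 (difference 1.07, adjusted p = 0.0666). Ly9, a SLAM-family surface receptor, measured 6.61, 6.23 and 6.69 against 7.51, 7.56 and 7.50 (difference 1.01, adjusted p = 0.0958). In both genes the Erg +/- arrays were closer together than the Erg +/+ arrays. Cks2, a subunit of cyclin-dependent kinases, measured 7.75, 6.90 and 7.82 against 8.91, 8.81 and 8.52 (difference 1.26, adjusted p = 0.143), and its second probe set stood at 1.04.

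The next genes in this direction had adjusted p between 0.262 and 0.428. Snx31, a sorting nexin, stood at 1.17 log2 units and Ung, the uracil-DNA glycosylase of base excision repair, at 0.78. Rhd, the Rh blood group antigen, stood at 1.12. Lrp8, a receptor for reelin and apolipoprotein E, stood at 0.70, Nfyb, a subunit of the CCAAT-binding factor NF-Y, at 0.69, and Abt1, a nucleolar RNA-binding protein, at 0.75. Aamdc (0.91), Ccdc159 (0.64) and Cfap57 (0.76) completed the set. The second probe set of Cfap57 went the other way, at -0.29. For each of these 9 genes the 3 Erg +/- arrays lay above the 3 Erg +/+ arrays, a condition of the rule that named them.

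Among genes lower in Erg +/- HSCs, the smallest p after Sparc belonged to Slc29a3, a nucleoside transporter of lysosomes and mitochondria. It measured 7.61, 7.76 and 7.63 in Erg +/+ and 6.71, 6.68 and 6.59 in Erg +/- HSCs (difference -1.01, SE 0.156, adjusted p = 0.0625). Its SD was 0.0808 in Erg +/+ and 0.0642 in Erg +/- HSCs. Efna1, a membrane-anchored ephrin ligand, measured 5.93, 7.36 and 6.28 against 5.01, 4.40 and 4.54 (difference -1.87, SE 0.305, adjusted p = 0.0638). Its Erg +/+ arrays were the more scattered ones, and without replicate 2 of them Efna1 passed (adjusted p = 0.0495). Arhgap10 measured 6.66, 6.14 and 6.15 against 5.20, 5.09 and 5.24 (difference -1.14, adjusted p = 0.119). Stimate, an endoplasmic reticulum protein that promotes STIM-dependent calcium entry, measured 6.28, 6.51 and 7.21 against 5.52, 5.62 and 5.34 (difference -1.18, adjusted p = 0.119). Flt3, the receptor tyrosine kinase that marks the step from stem cells to multipotent and lymphoid-primed progenitors, measured 6.38, 5.98 and 6.34 against 5.45, 4.69 and 4.57. The difference of Flt3 was -1.33 (SE 0.250, adjusted p = 0.119). For the genes of this paragraph too, a lack of overlap was a condition of the rule that named them.

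The following genes in this direction had adjusted p between 0.152 and 0.350. They included 2 surface proteins of transport and signalling: Slco3a1, an organic anion transporter, at -1.18 log2 units, and Lgr4, a receptor for R-spondins, at -1.24. Pkn3, a protein kinase, stood at -1.06, and Runx1t1, the transcriptional corepressor also known as ETO, at -1.14. Prrg2 (-1.65), Chic1 (-1.41), Fam217b (-1.03), Dohh, the enzyme that completes the hypusine of eIF5A (-0.98), and Myom1 (-0.87) were the others. Without Erg +/+ replicate 2, Prrg2 (adjusted p = 0.0306) and Fam217b (0.0495) passed. Chic1 was lower on both of its probe sets (-1.41 and -1.07).

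**Figure D2:**
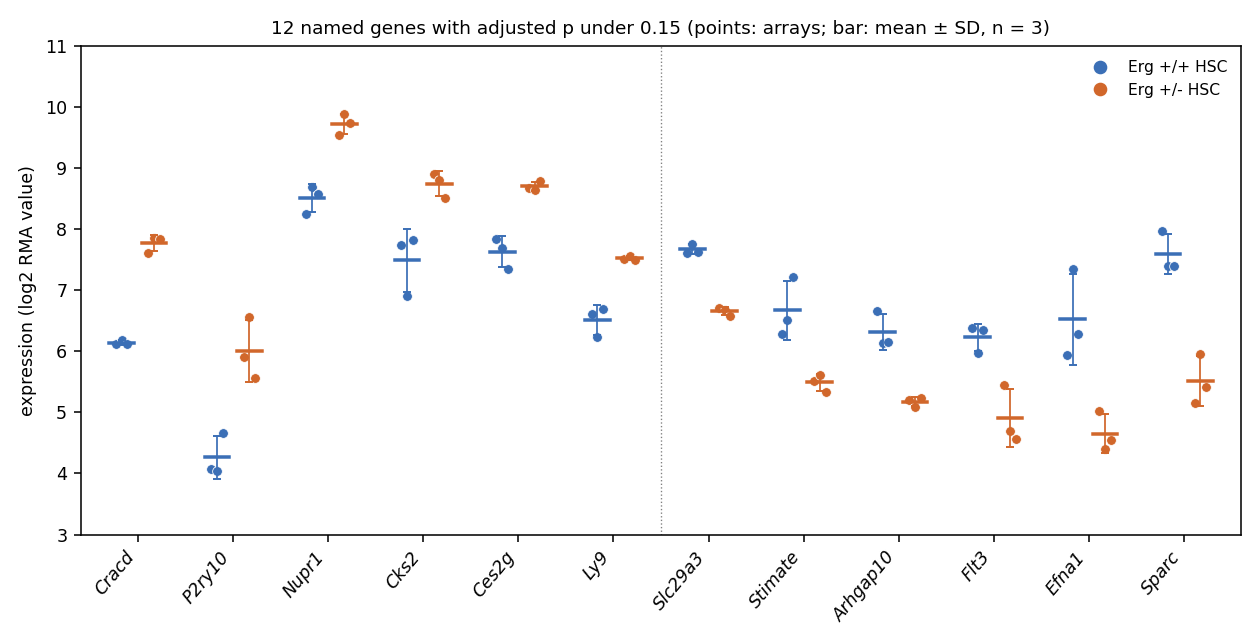
Log2 RMA values of the 12 named genes with adjusted p under 0.15, by array: blue points are the 3 Erg +/+ and orange points the 3 Erg +/- HSC arrays, with the mean and SD of each group. To the left of the dotted line are genes higher and to the right genes lower in Erg +/- HSCs. In none of the 12 do the groups overlap, which was a condition of the rule that named them.

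Several of the largest differences came with a wide spread within 1 genotype. Among higher genes, Raet1d, a ligand of the NKG2D receptor, stood at 1.72 with Erg +/- values of 3.18, 3.90 and 5.71. Zmpste24, the protease that processes prelamin A, stood at 1.70 with Erg +/- values of 6.41, 4.92 and 7.64. Atxn1 (1.45), the chemokine Ccl9 (1.45), the protease inhibitor Slpi (1.28), the erythropoietin receptor Epor (1.27) and the ribosome assembly factor Pno1 (1.24) followed. Replicate 3 was the highest Erg +/- array in Raet1d, Zmpste24, Atxn1, Ccl9, Slpi and Epor. Among lower genes, Cxcl12 stood at -1.75, Serping1 at -1.73, Chad, a cartilage matrix protein, at -1.72, Kansl1, a subunit of a histone acetyltransferase complex, at -1.67, Kazald1 at -1.36 and Pde2a, a cyclic nucleotide phosphodiesterase, at -1.36. These genes had adjusted p between 0.400 and 0.786.

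Of 6 measured genes known for high levels in HSCs, Nupr1 was nominally higher and none was nominally lower, where 2.73% and 3.59% of all genes were. Ifitm1, an interferon-induced membrane protein, measured 12.27, 12.06 and 12.11 in Erg +/+ and 12.30, 12.14 and 12.28 in Erg +/- HSCs. Its difference was 0.09, with overlapping arrays. Tgm2, a transglutaminase, differed by 0.00, Mmrn1, a multimerin, by -0.25 and Hoxa9, a homeobox factor of stem and progenitor cells, by -0.14, all with overlapping arrays. HSC-associated genes other than Nupr1 thus differed by at most 0.32 log2 units in size (Cldn10, -0.32). Genes named beyond the naming rule, in this and later lists, were chosen after their values were seen.

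Of 10 genes of multipotent and lymphoid-primed progenitors, 3 were nominally lower and none nominally higher, with a median of -0.33. Besides Flt3 these were Lax1, an adaptor that dampens lymphocyte receptor signals, at 6.27, 7.52 and 6.81 against 6.21, 5.47 and 6.10, and Mn1, a transcriptional coregulator, at -0.62. Other members went the other way without reaching a nominal p, among them Blnk, the B cell linker protein (0.43), and Notch1 (0.16). The list median rested on 1 array: without Erg +/+ replicate 3 it was 0.035. The nominal count was 1 without Erg +/+ replicate 2 or without Erg +/- replicate 2. Of 7 B cell markers, 4 had positive differences and 3 negative ones, with a median of 0.089, and 1 was nominal. This was Bank1, an adaptor of B cell receptor signalling, at 0.85 (5.09, 5.51 and 5.45 against 6.81, 5.80 and 5.99).

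Granulocyte and monocyte genes leaned the other way, with 12 of 15 differences positive, a median of 0.35 and 2 nominally higher members. These were Clec12a, an inhibitory lectin of myeloid cells, at 0.97 and Itgam, the CD11b chain of the Mac-1 integrin, at 0.63. The arrays of both genes overlapped, with Clec12a at 5.76, 5.16 and 7.20 in Erg +/+ and 7.09, 7.31 and 6.63 in Erg +/- HSCs. With 1 array left out the nominal count lay between 0 and 4 and the median between 0.132 (without Erg +/+ replicate 1) and 0.465 (without Erg +/+ replicate 3). Megakaryocyte and platelet genes, a lineage that shares factors with HSCs, had 4 of 11 differences positive and a median of -0.19. The genotypes did not overlap for 2 higher members and 1 lower member, where 6.06% and 4.38% of all genes did not. With 1 array left out the median lay between -0.212 and 0.157. The 1 nominally lower member was the platelet glycoprotein Gp5, and none was nominally higher. It measured 7.01, 6.57 and 6.96 against 5.77, 6.29 and 6.51 (difference -0.66), and Itga2b, the αIIb integrin chain, differed by -0.20 with overlapping arrays.

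Of the cell marker lists, erythroid genes had the most nominally higher members. Of 19 measured genes, 17 had positive differences, 6 were nominally higher and 1 nominally lower, and the list median was 0.30 log2 units. None passed over all 9984 genes, and erythroid genes were already known from earlier results of these data to stand higher. Rhd measured 5.06, 5.57 and 5.00 in Erg +/+ and 6.04, 6.21 and 6.72 in Erg +/- HSCs. Kel, the Kell blood group endopeptidase, measured 4.53, 4.71 and 4.47 against 6.22, 4.88 and 6.05 (difference 1.14). Epor, the receptor through which erythropoietin keeps red cell precursors alive, measured 5.46, 5.79 and 5.94 against 6.90, 6.14 and 7.95. In Kel and Epor, replicate 2 was the lowest Erg +/- array and stood just above the highest Erg +/+ array. Without that array Kel passed over all genes (difference 1.56, limma adjusted p = 0.0137).

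The other nominally higher erythroid genes were Slc4a1, the band 3 anion exchanger of the red cell membrane (0.97), Trim10, a ubiquitin ligase of red cell maturation (0.66), and Alas2, which starts heme synthesis in red cell precursors (0.56). Car1, a carbonic anhydrase, had the largest difference of the list (1.44), but its Erg +/+ arrays were spread from 6.74 to 9.28 and it was not nominal (limma adjusted p = 0.868). The red cell transcription factors Gata1 (0.29) and Klf1 (0.27) had smaller differences with overlapping arrays. Hemgn, a nuclear protein of erythroid and stem cells, was the nominally lower member, at 7.30, 7.52 and 7.34 against 7.20, 5.93 and 6.36 (difference -0.89). With 1 array left out, 4 to 7 erythroid genes were nominally higher and the median lay between 0.288 and 0.562. Heme and iron genes, a list that shares members with this one, had Glrx5, an iron-sulphur cluster glutaredoxin, at 0.56.

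Stromal and mesenchymal niche genes, many of which mark cells that an HSC sort should not hold, had 5 of 16 members nominally lower and none nominally higher. Differences were negative for 11 members and positive for 5, the largest positive one being 0.95. Sparc belongs to this list and was the member that passed over all genes. Serping1, the C1 inhibitor, measured 7.21, 5.36 and 5.09 in Erg +/+ and 3.93, 4.56 and 3.98 in Erg +/- HSCs. Cxcl12, the chemokine that holds HSCs in the marrow, measured 9.09, 6.08 and 7.03 against 5.92, 5.46 and 5.58. Mgp, a matrix protein that inhibits calcification, measured 5.88, 5.30 and 5.33 against 4.74, 4.32 and 4.76 (difference -0.90). In these genes the genotypes did not overlap, and Erg +/+ replicate 1 was the highest array. Pdgfrb, a receptor of pericytes and mesenchymal cells, stood at -0.67.

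Erg +/+ replicate 1 was also the highest of the 6 arrays for the adipokine Adipoq (4.69, against 3.29 to 3.72 on the other 5) and for Igfbp5 (5.50, against 4.19 to 4.75), which are abundant in Cxcl12-rich stromal cells. These genes did not differ nominally. The mean level of the 16 list members was 5.97 on that array, 5.28 and 5.44 on the other Erg +/+ arrays, and 5.11, 5.14 and 5.22 on the Erg +/- arrays. The collagen-binding proteoglycan Dcn lay between 3.62 and 4.15 on all 6 arrays, and the smooth muscle actin gene Acta2 between 4.50 and 4.64. Without Erg +/+ replicate 1 the list median changed sign, from -0.16 to 0.042, and 9 of 16 differences were positive, while the count of nominally lower members was again 5. Whether RNA of stromal cells in that sample has a part in these differences was not tested.

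Endothelial genes, many of which HSCs also express, had 9 of 10 differences negative and 3 nominally lower, with a median of -0.33. Sox18, a transcription factor of vascular and lymphatic development, measured 6.55, 6.63 and 7.50 against 5.74, 5.88 and 6.19 (difference -0.96). Efnb2, an ephrin ligand of arterial endothelium, stood at -0.78 and Kdr, the main receptor for VEGF-A, at -0.52. Pecam1, a junction protein of endothelium and blood cells, measured 7.92, 7.65 and 7.96 against 7.22, 7.64 and 7.25, a difference of -0.47 that was not nominal (limma adjusted p = 0.823). Eng, the endoglin coreceptor of the TGF-beta family, was among the most strongly expressed on its own scale, between 9.55 and 10.22, and differed by -0.34. The median stayed negative with each array left out, between -0.452 and -0.225, but the count of nominally lower members lay between 1 (without Erg +/+ replicate 3) and 4 (without Erg +/+ replicate 1).

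**Figure D3:**
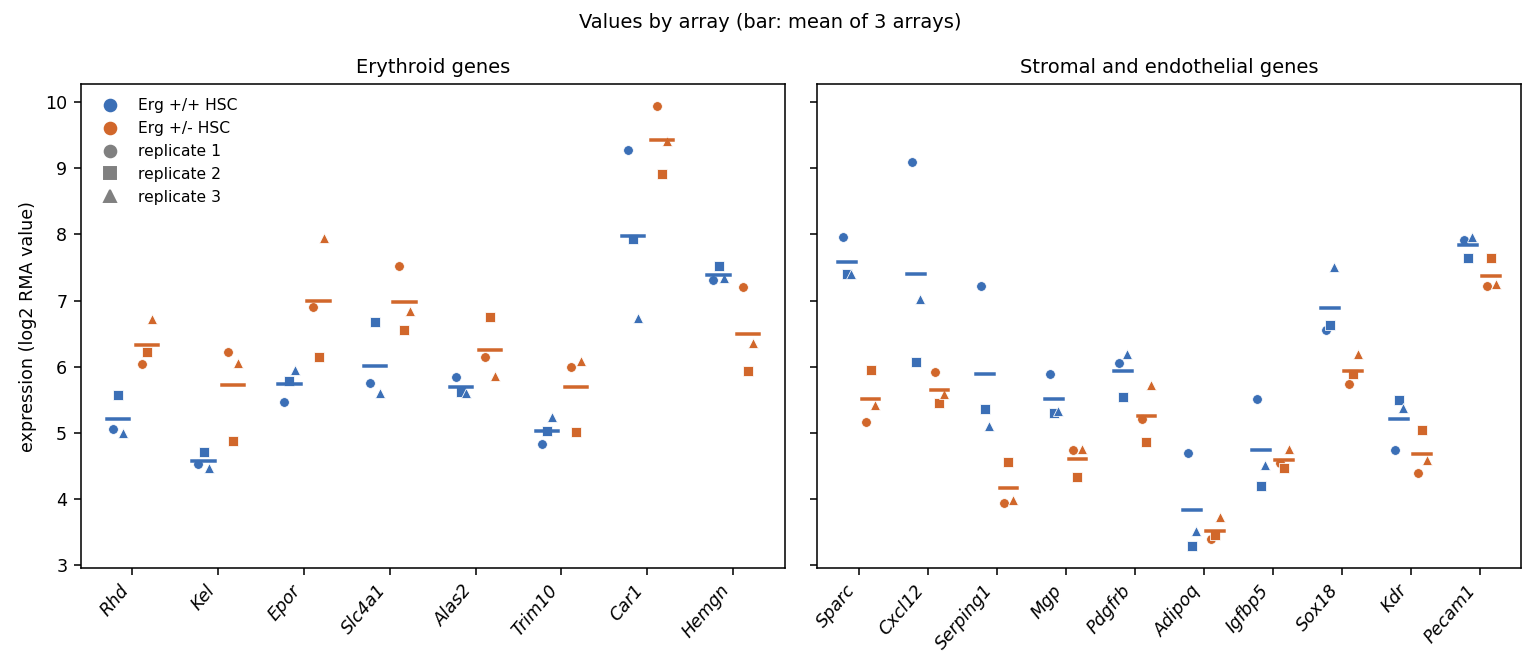
Log2 RMA values by array for 8 erythroid genes (left) and 10 stromal and endothelial genes (right), with Erg +/+ HSCs in blue, Erg +/- HSCs in orange, a symbol for each replicate and a bar at the mean of 3 arrays. Erg +/+ replicate 1 is the highest array for Cxcl12 at 9.09, Serping1 at 7.21, Adipoq at 4.69 and Igfbp5 at 5.50.

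Genes of ribosome biogenesis and cell growth, which work mainly in the nucleolus, had 32 of 42 differences positive, 5 nominally higher and none nominally lower, with a median of 0.18. Dkc1 and Gar1 encode subunits of the H/ACA complex that turns uridines of ribosomal RNA into pseudouridine. Dkc1 measured 8.18, 8.28 and 7.98 in Erg +/+ and 8.66, 9.09 and 8.72 in Erg +/- HSCs, and Gar1 stood at 0.43. Ddx21 (0.48) and Ddx10 (0.58) are RNA helicases of ribosome assembly, and Pa2g4 is a growth-related protein bound to ribosomes (0.36). In all 5 genes the 3 Erg +/- arrays lay above the 3 Erg +/+ arrays. With each array left out the median lay between 0.092 and 0.251, and 3 to 5 genes were nominally higher. Cytosolic ribosomal proteins themselves differed little: 2 of 50 were nominally higher, Rpl9 at 0.37 and Rpl32l at 0.38, and the list median was 0.05. Further probe sets of Rpl9 stood at -0.15 and 0.28.

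Cyclins, their kinases and E2F factors had 11 of 14 differences positive and 3 nominally higher. Besides Cks2 these were Ccne2, a cyclin of the entry into S phase, at 6.13, 6.20 and 6.28 against 7.01, 6.39 and 7.11, and E2f3, a transcription factor of S-phase genes, at 0.60. A second probe set of E2f3 stood at -0.24. With 1 array left out, 1 to 3 members were nominally higher, the 1 being without Erg +/- replicate 3. The lists of DNA replication and mitosis held no nominal member, but only 20 of 52 and 10 of 63 listed genes were measured. The median was 0.01 for the replication genes and 0.00 for the mitosis genes. Differences of the mitosis genes ran from -0.60 to 0.87, the latter in Cdca8. With 1 array left out their median lay between -0.219 and 0.111. Most genes of these lists were thus not seen. Among DNA repair genes, Ung was nominally higher and Ercc3, a helicase of nucleotide excision repair, nominally lower (-0.54).

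Genes of MAP kinase signalling had 25 of 35 differences negative, with 4 nominally lower, none nominally higher and a median of -0.19. Map3k7, the kinase TAK1 that relays TGF-beta and cytokine signals, measured 8.30, 8.54 and 8.12 in Erg +/+ and 7.74, 7.77 and 7.48 in Erg +/- HSCs. Map2k5, the kinase upstream of ERK5, stood at -0.61 and the MAP4 kinases Map4k5 and Map4k4 at -0.45 and -0.44. The nominal count lay between 1 and 6 with 1 array left out. In the TGF-beta and BMP list, Tgfbr2, the ligand-binding TGF-beta receptor, stood at -0.58 without overlap, Skil, a corepressor of SMAD proteins, at -0.71, and Bmpr1a, a BMP receptor, at 0.62.

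The WNT list had nominal members in both directions. Lgr4, a receptor that binds R-spondins and so strengthens WNT signals, measured 5.29, 5.06 and 5.99 against 3.91, 4.40 and 4.32 and was the nominally lower member. The ligands Rspo4 (0.59) and Wnt9a (0.38) and the WNT5A receptor Ror2 (0.55) were nominally higher, and 24 of 36 differences were positive. With 1 array left out, 2 to 4 WNT genes were nominally higher and 1 to 3 nominally lower. Guidance genes had 3 nominally lower members of 24: Efna1, Efnb2 and Plxnd1, a semaphorin receptor of endothelium (6.24, 6.10 and 6.08 against 4.99, 5.46 and 5.55). Robo1, a receptor for slit proteins, was nominally higher at 0.50. The ephrin receptors Ephb1 (0.23), Ephb4 (-0.30) and Ephb6 (0.09) were not nominal.

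Among 25 chemokines and chemokine receptors, Ccl9 was nominally higher and 3 genes nominally lower. Ccl9 measured 4.52, 4.82 and 4.88 against 5.35, 5.97 and 7.26. Besides Cxcl12, the transmembrane chemokine Cxcl16 stood at -0.75. Interferon-response genes had 1 nominal member in each direction of 13. Irf1, a transcription factor induced by interferons, measured 7.50, 7.72 and 7.16 against 6.15, 7.02 and 6.28 (difference -0.98), and Oasl1, an interferon-induced regulator of translation, stood at 0.62. Of 13 genes that respond to cell dissociation, the nuclear receptor Nr4a2 (0.51) and Ier5 (0.55) were nominally higher, a count that lay between 0 and 4 with 1 array left out.

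Of 12 measured ETS-family genes, the family of Erg itself, 1 was nominally higher and 1 nominally lower. Etv5, an ETS factor induced by growth factor signalling, measured 6.58, 6.33 and 6.08 in Erg +/+ and 6.78, 7.09 and 7.22 in Erg +/- HSCs (difference 0.70, SE 0.201, unadjusted p = 0.00439). Ets1, a factor of lymphocytes and endothelium, measured 6.58, 6.49 and 6.51 against 6.02, 6.12 and 5.66 (difference -0.60, SE 0.174, unadjusted p = 0.00488). The genotypes did not overlap in either gene. The remaining members included Elf1 at -0.06, Elf2 at -0.23, Elk1 at -0.23, Etv4 at 0.20 and Spib at 0.08, all overlapping save Etv4, and Spic, a factor of red pulp macrophages, which ranged from 5.18 to 8.65 within Erg +/- alone.

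Zinc finger proteins named Zfp, most of them DNA-binding repressors of the C2H2 type, leaned to lower values. Of 223 genes, 143 had negative differences, 21 were nominally lower and 6 nominally higher, and the median was -0.09. Zfp617 measured 6.80, 6.35 and 6.47 against 5.74, 5.42 and 4.79, and Zfp759 measured 7.28, 7.15 and 7.81 against 6.63, 6.59 and 6.17. Zfp319 stood at -0.49, and a second probe set of it at -0.72. Of the 21 nominally lower genes, 14 lay in the third bin of mean level: 15.38% of the 91 Zfp genes there, against 6.17% of all genes in that bin. In the second bin 5.36% of 56 Zfp genes were nominally lower, against 3.61% of all, and in the highest bin 6.0% of 50, against 3.69%. In the lowest bin it was 1 of 26. Many of these genes are close copies of each other, and which copies a probe set reads was not tested. The median lay between -0.121 and -0.058 with 1 array left out, and 15 to 22 genes were nominally lower.

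Among genes of DNA methylation and Polycomb, 3 of 25 were nominally lower and none higher, with a median of -0.079. With any 1 array left out 2 were nominally lower, but 0 to 2 were nominally higher. The median then lay between -0.109 and 0.015, so its sign was not steady. Uhrf2, a ubiquitin ligase that binds modified cytosine, measured 8.88, 8.95 and 8.91 against 8.23, 8.24 and 8.28, and the groups were narrow and did not overlap. Pcgf2, a Polycomb ring finger protein, stood at -0.82 and Mbd4, a glycosylase that removes mismatched thymine at methylated sites, at -1.03. Mbd4 overlapped, with Erg +/- replicate 1 at 7.57 and the other 2 Erg +/- arrays at 5.80 and 6.25. Among histone modifiers, Kmt2d, a histone H3 methyltransferase of enhancers, stood at 0.43 and Smarcb1, a core subunit of SWI/SNF remodellers, at -0.65.

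**Figure D4:**
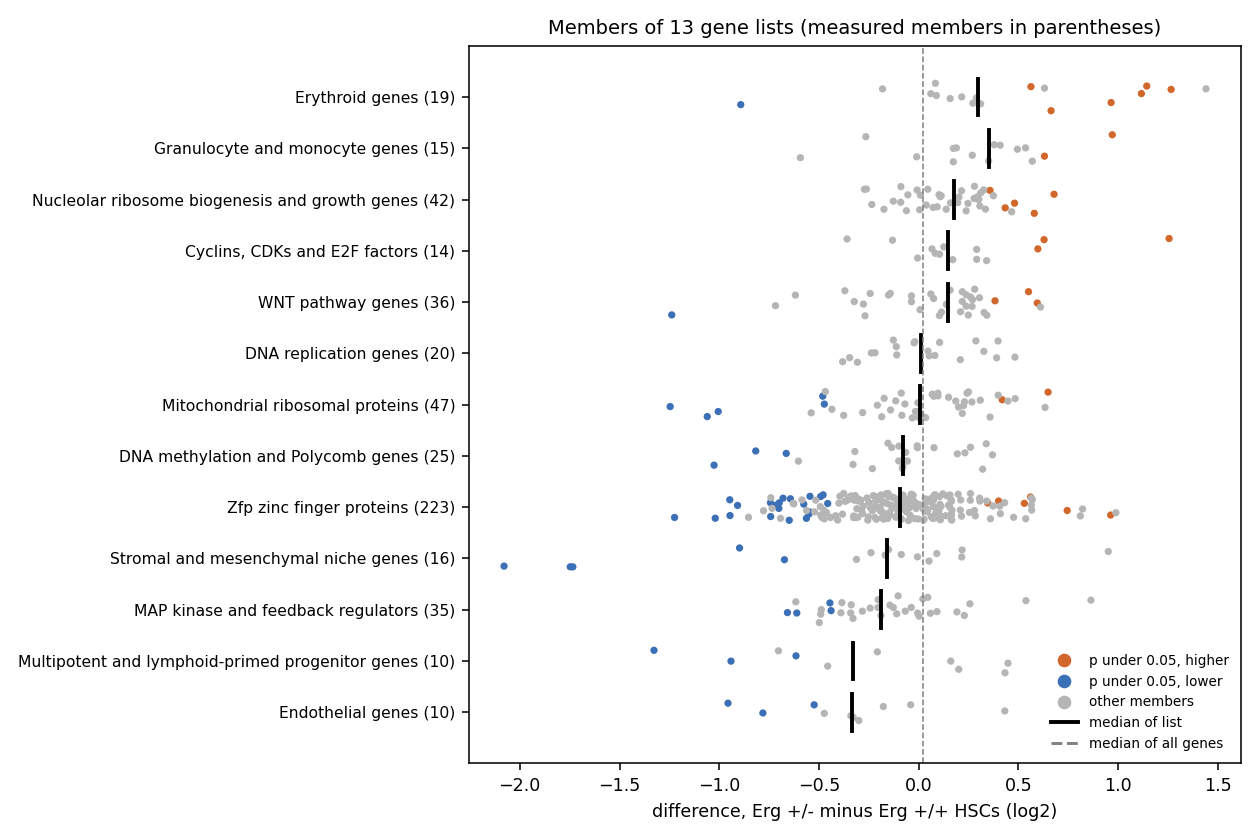
Difference Erg +/- minus Erg +/+ (log2) of the members of 13 gene lists, 1 point a gene, with nominally higher members in orange, nominally lower members in blue, the list median as a black bar and the median of all genes (0.0241) as a dashed line. Medians run from 0.35 for granulocyte and monocyte genes to -0.33 for endothelial genes.

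Mitochondrial ribosomal proteins had 5 nominally lower and 2 nominally higher members of 47, with a median of 0.01. Leaving out 1 array gave 3 to 6 nominally lower and 0 to 3 nominally higher ones. Mrps27 measured 5.83, 7.74 and 6.63 against 5.42, 5.84 and 5.21, and Mrps18a measured 9.49, 8.41 and 8.94 against 8.24, 7.87 and 7.55. Mrpl24 was lower by 0.47 units with both groups tight (9.33, 9.55 and 9.28 against 8.93, 8.95 and 8.87). Respiratory chain and ATP synthase subunits had 1 nominal member of 53, the Rieske protein Uqcrfs1, at 0.44. Proteasome subunits had 2 of 30, Psma5 at 0.47 and Psmc1 at 0.45, and the second probe set of Psmc1 stood at 0.02.

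Solute carriers had 9 nominally lower and 4 nominally higher members of 170, with a median of 0.04. Leaving out 1 array gave 5 to 12 nominally lower and 1 to 5 nominally higher ones. The lower ones included Slc29a3, Slco3a1 and Slco4a1, a thyroid hormone transporter (-0.75). Potassium channels leaned to positive differences, 32 of 39, but on a small scale: the median was 0.12, and Kcnj15 (0.67) and Kcna3 (0.54) were nominally higher. Their mean level by array lay between 4.85 and 5.12, within the second bin. In that bin only 38.8% of all genes had negative differences, and the median was 0.069. Other dim families leaned alike, with 30 of 38 keratins and 19 of 25 transient receptor potential and calcium channels positive. Phosphodiesterases, adenylate cyclases and phospholipases had 3 nominally lower members of 36, all phosphodiesterases. Pde2a measured 7.24, 7.10 and 7.96 against 5.78, 6.84 and 5.61, Pde9a stood at -0.61 and Pde8a at -0.60. Genes named Rab, small GTPases of vesicle traffic and proteins named after them, had 21 of 39 differences positive and a median of 0.077. Of these, 4 were nominally lower, among them Rab33b at -0.56, and 1 nominally higher, Rab40b at 0.51. Olfactory receptors, which blood cells are not expected to use, had 3 nominal genes of 303 and a median of 0.01.

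The targeted allele was made in E14.1 cells and crossed to C57Bl/6, so the neighbours of Erg on chromosome 16 were examined in RefSeq gene order. Of the 20 measured genes before Erg and the 13 after it, 33 in all, 2 were nominally higher and none nominally lower, and the median was 0.015. The nearest measured gene, Kcnj15, an inwardly rectifying potassium channel, measured 5.14, 5.11 and 4.98 in Erg +/+ and 5.44, 6.38 and 5.41 in Erg +/- HSCs. The other was Gart, an enzyme of purine synthesis, at 0.44. Psmg1, the first measured gene on the other side, stood at 0.41 and overlapped (limma adjusted p = 0.912). Chromosome 16 as a whole had 18 nominally higher and 9 nominally lower of 316 genes, 8.54% against 6.32% of all genes.

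microRNA genes silence messenger RNAs through the seed at bases 2 to 8 of the mature strand. Their probe sets read the gene or hairpin region, not the mature strand. Of 172 measured microRNA genes, 4 were nominally higher and 6 nominally lower, 5.81% against 6.32% of all genes, and the median was 0.021. They fall outside the naming rule, and those named here were chosen after their values were seen. To group them by seed, mature strands are shown for 5 of the 11 genes that differed by more than 1 log2 unit. All 5 had a nominal p. Mir532 also had a nominal p and differed by more than 1 unit, but its strand is not shown. Mir1839 (-0.97) and Mir452 (-0.99) were nominally lower without overlap and are not shown either. Strands are from RefSeq (build GRCm38.p6), 5′ to 3′, with the seed in capitals.
miR-181b-5p: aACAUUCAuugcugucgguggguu
miR-32-5p: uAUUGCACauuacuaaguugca
miR-25-3p: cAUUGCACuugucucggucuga
miR-93-5p: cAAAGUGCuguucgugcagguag
miR-15b-5p: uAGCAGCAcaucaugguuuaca
miR-32-5p and miR-25-3p carry the same seed, AUUGCAC, and come from different chromosomes, 4 and 5. The sequences of miR-93-5p and miR-15b-5p carry the seeds of the miR-17 and miR-15/16 families.

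Mir181b-2, at chr2:38853845-38853868 for its 5p strand, had the largest positive difference of all 9984 genes. It measured 4.73, 5.27 and 5.66 in Erg +/+ and 7.54, 7.72 and 7.09 in Erg +/- HSCs (difference 2.23, SE 0.419, adjusted p = 0.119). Both groups were well apart, but it did not pass over all genes. Mir181a-1, which shares the seed ACAUUCA from another locus, measured 2.43, 3.05 and 2.63 against 2.47, 2.55 and 2.90 and differed by -0.07. Mir532 stood at 1.36, of which 1 array, Erg +/- replicate 2 at 7.77, made most.

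Mir32 had the most negative difference of all genes, -2.43, but its arrays overlapped at 8.36, 7.41 and 4.57 against 4.81, 4.35 and 3.87. Mir25 showed a like scatter, at 8.78, 8.47 and 6.15 against 6.00, 7.65 and 5.77 (difference -1.33). Erg +/+ replicate 3 was the low wild-type array in both. The other genes with this seed, Mir92-2 (0.13), Mir363 (0.69) and Mir367 (-0.04), were not nominal. Mir93, next to Mir25 on chromosome 5, measured 7.94, 5.92 and 7.32 against 5.63, 5.64 and 6.00 (difference -1.30), whereas Mir17 (0.40), Mir20a (-0.17) and Mir20b (-0.07), with the same seed as Mir93, overlapped between the genotypes. Mcm7, the gene known to host Mir25 and Mir93, differed by -0.35 with overlapping arrays (limma adjusted p = 0.923). Mir15b stood at -1.32, again with Erg +/+ replicate 3 low (4.18, 4.38 and 2.35 against 2.09, 2.37 and 2.50). Mir16-2, its neighbour of the same seed, measured 5.39, 5.06 and 5.22 against 4.29, 4.46 and 4.47 and did not overlap (difference -0.82, limma adjusted p = 0.834). The other measured genes with this seed went the other way with overlapping arrays, Mir15a at 0.75 and Mir16-1 at 0.22.

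**Figure D5:**
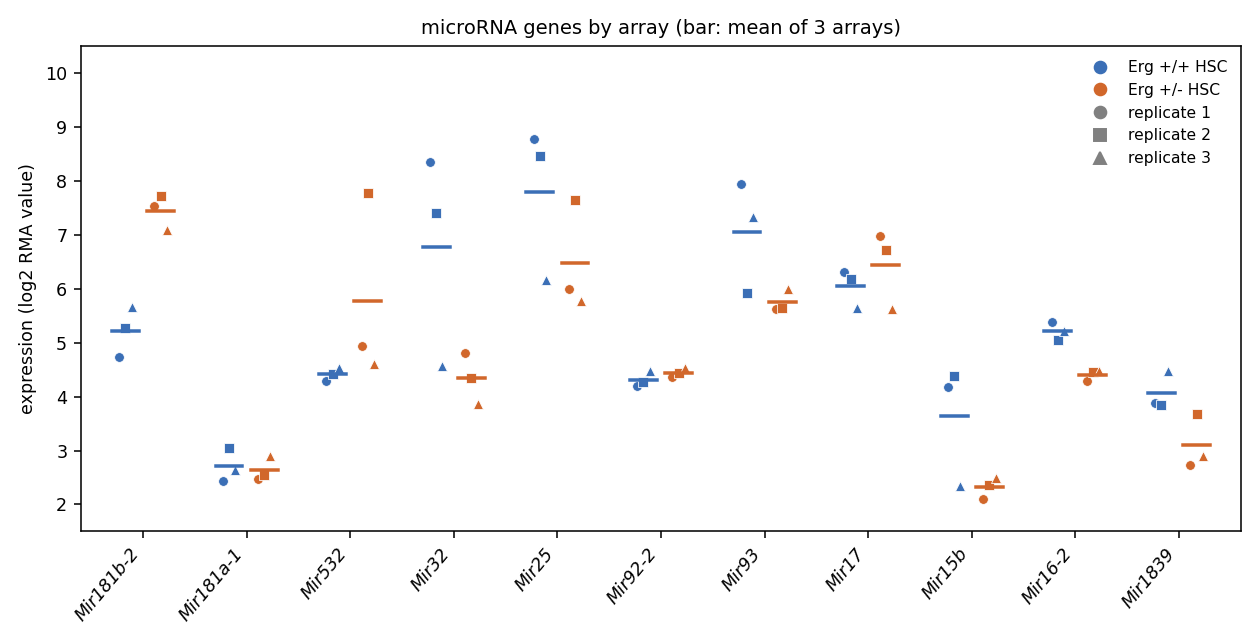
Log2 RMA values by array for 11 microRNA genes, with Erg +/+ HSCs in blue, Erg +/- HSCs in orange, a symbol for each replicate and a bar at the mean of 3 arrays. Mir181b-2 separates the genotypes, whereas in Mir32, Mir25 and Mir15b 1 Erg +/+ array lies at the level of the Erg +/- arrays.

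The same genes were then read in MPPs labelled Erg -/- against Erg fl/fl, arrays that share no sample with the HSC comparison. The contrasts differ in cell type, allele dose, pIpC and Mx1-Cre at once, and these cannot be told apart. Sparc measured 6.54, 5.91 and 6.10 in Erg fl/fl and 6.63, 5.70 and 6.07 in Erg -/- MPPs, a difference of -0.05. Cracd differed by 0.10 and Nupr1 by 0.05. Each of the 3 genes thus had a difference near 0 in MPPs. The test of the difference between the contrasts passed for 2 of 9984 genes (0.02%), neither of them among these: its adjusted p was 0.0554 for Cracd, 0.192 for Sparc and 0.318 for Nupr1. Flt3, at 9.05, 8.70 and 8.65 in Erg fl/fl MPPs, stood at 0.52 in MPPs and -1.33 in HSCs (adjusted p of the difference 0.173).

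Other genes stood on the same side in both populations, and 6 of them, chosen after their values were seen, are given as examples. The share of all genes that agreed in sign between the contrasts was not counted. P2ry10 measured 4.65, 4.02 and 4.14 in Erg fl/fl and 5.68, 5.12 and 5.31 in Erg -/- MPPs, a difference of 1.10 (adjusted p = 0.497 in that contrast) beside 1.75 in HSCs. Slco3a1 stood at -1.17 in MPPs (adjusted p = 0.152) and -1.18 in HSCs, and its arrays did not overlap in either population. Etv5 stood at 0.90 and 0.70, Ces2g at 0.71 and 1.07, Arhgap10 at -0.77 and -1.14, and Kcnj15 at 0.70 and 0.67. None of these 6 genes passed in either contrast over all genes. In MPPs 8 of 9984 genes (0.0801%) passed.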

How the data were processed

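Gene expression was measured on 12 Affymetrix arrays, 3 for each of 4 groups, from 20 ng of total RNA per sample and 2.5 µg of labelled cDNA, per the labels' protocols. The deposited values are log2 values that the authors made with RMA and the affy package, per the submitters' processing notes. Versions, the genome build and whether all arrays were normalised together are not given in the sources used here. RMA fits each array to a common distribution, so a shift of most genes would not be seen, and the number of arrays limits the precision.

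Of 18719 probe sets, 10657 had 1 gene symbol in the platform annotation, 523 had several and 7539 were not listed there and are unnamed here. For each of 9984 genes, the probe set whose mean over the 12 arrays was highest was taken (364 genes had more than 1). Gene IDs of 9933 genes matched RefSeq (GRCm38.p6), the source of the gene order, promoters and microRNA sequences. One group-mean model over the 12 arrays was fitted in limma 3.58.1 (R 4.3.3), with Benjamini-Hochberg adjustment over 9984 genes, a threshold of 0.05 and two-sided tests. The fit was run on simulated data with known changes and independent normal noise of the fitted spread. Such data meet the model by design, so the run checks the code and not how well the model suits these arrays.

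Genes were named by rule: those that passed, the 15 with the smallest p and the 10 with the largest difference in each direction among those whose arrays did not overlap (the latter at p under 0.05), and up to 3 members a list at p under 0.05, otherwise the 1 with the smallest p. Predicted genes, sensory receptors and small RNAs entered the counts without being named. The lists, the rules and the genes of interest were chosen with earlier results of these data known. Lists are described by counts and medians and were not tested as sets, and only lists with at least 5 measured genes are described. Alternatives covered the replicate block, level filters, probe set choice, scaling, moderation, array weights, the arrays fitted and leaving out each array.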

Additional observations from a re-analysis of the deposited data

Results flagged for a closer look

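Ifitm1 and Igll1 stood out because their differences were not the same in the HSC and MPP contrasts by a limma test of the difference itself. Ifitm1, an interferon-induced membrane protein, differed by 0.09 between Erg +/- and Erg +/+ HSCs and by -1.66 between Erg -/- and Erg fl/fl MPPs, so that the MPP effect minus the HSC effect was -1.75 (SE 0.219, adjusted p = 0.0157). It measured 11.17, 11.04 and 10.98 in Erg fl/fl and 9.31, 9.27 and 9.63 in Erg -/- MPPs, all 3 of the latter below all 3 of the former. Igll1, a chain of the surrogate light chain of B cell precursors, differed by 0.15 in HSCs and by -1.88 in MPPs, a difference of -2.03 between the contrasts (SE 0.244, adjusted p = 0.0157). Neither gene passed on this test without any 1 of the following arrays: Erg +/+ replicate 2 or 3, Erg +/- replicate 1 or 3, replicate 1 of the Erg fl/fl MPPs, and replicates 1 and 2 of the Erg -/- MPPs, with adjusted p between 0.0558 and 0.0777. The contrasts also differ in cell type, allele dose, pIpC and Mx1-Cre, which cannot be told apart.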

How the results depend on the processing

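The count of 2 genes that passed in HSCs (Cracd and Sparc) was 0 with the replicate block, with the mean of probe sets and with only the 6 HSC arrays, 1 after repeated quantile normalisation, 5 with an intensity trend and robust moderation, 7 with a filter at the 25th percentile of level, and 1 to 8 with 1 array left out (8 without Erg +/+ replicate 2 and 6 without Erg +/- replicate 2). Over all deposited probe sets 2 passed, the brighter probe set of Cracd and 1 other that is not named here. In the settings that gave 0, 246, 269 and 208 genes were still nominally higher and 387, 358 and 267 nominally lower. The nominal counts of 273 higher and 358 lower were 146 and 212 with a filter at the 50th percentile, which tests fewer genes, and 435 and 560 over all deposited probe sets. With 1 array left out they were 243 to 322 and 313 to 409. The 2 genes whose MPP and HSC effects differed became 1 with the replicate block, 4 with the trend and robust moderation, and 0 to 3 with 1 array left out. Col4a2, at -0.24, ranged from -0.421 to 0.042 with 1 array left out and changed sign without Erg +/+ replicate 3. Where no reason is given, the cause was not tested. The labels give no pairing of samples by replicate number. Same-numbered arrays had correlations of 0.00112, -0.0326 and 0.0555 between their deviations from the group means. Differently numbered arrays had correlations from -0.0558 to 0.0538. Such values over all genes cannot show whether a replicate number stands for a shared batch in some genes, which was not tested. Under the replicate block, the adjusted p was 0.0732 for Cracd and 0.0935 for Sparc. With 3 arrays a group, probe sets of low signal had the fewest nominal genes (32 higher and 22 lower in the lowest of 4 bins of level).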
